A study of Mus musculus with 6 samples.

Results

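The genes described here are the protein-coding glutathione, peroxidase and thioredoxin genes of the mouse: the glutathione peroxidases (Gpx), the glutathione S-transferases (Gst and Mgst), the peroxiredoxins (Prdx), the thioredoxins, thioredoxin reductases and glutaredoxins (Txn, Txnrd, Glrx), superoxide dismutases and catalase, the enzymes that make and recycle glutathione (Gclc, Gclm, Gss, Gsr), and the gene of the transcription factor NRF2 (Nfe2l2) with its targets Nqo1, Hmox1 and Srxn1. They were chosen by symbol, and 61 of the 55414 gene identifiers in the count tables matched. The choice was made with Gpx8 in view, whose rise in the knockout had been seen in these same libraries, so the Gpx8 difference is given as a description with no test. Poly(A)-selected RNA was sequenced from untreated pancreatic acinar cells of adult mice, in 3 control preparations of genotype Pdx1Cre;Trip12+/+ and 3 knockout preparations of genotype Pdx1Cre;Trip12fl/fl. Trip12 encodes a ubiquitin ligase of the HECT class, and the comparison asks how its loss changes gene expression in these cells. Both groups carry the Pdx1-driven Cre recombinase. Pdx1 is active in the embryonic epithelium that gives rise to acinar, duct and islet cells, so recombination is not limited to acinar cells, and stromal and blood cells, which do not arise from it, are expected to keep Trip12.

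Glutathione is a small thiol made from glutamate, cysteine and glycine. Glutathione peroxidases use it to reduce peroxides, glutathione S-transferases attach it to reactive compounds, and glutathione reductase returns the oxidized form to the thiol. Peroxiredoxins do similar work with electrons from thioredoxin. Acinar cells make and fold large amounts of secreted enzymes in the endoplasmic reticulum, where forming disulfide bonds yields hydrogen peroxide. Gpx8, Gpx7 and Prdx4 are among the peroxidases that reside there.

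The libraries held 31019500 to 34041901 counts assigned to genes in the controls and 31318935 to 32163072 in the knockouts. Trip12 stood at 29.0, 22.3 and 26.4 CPM (counts relative to library size, adjusted by the trimmed mean of M-values, TMM) in controls 1 to 3 and at 14.4, 14.7 and 13.0 CPM in knockouts 1 to 3, so the groups did not overlap (exact permutation p = 0.1, two-sided, the smallest that 3 against 3 can give). All 8 acinar markers were detected, and together they made up 373469 to 498421 CPM in the controls and 331626 to 344786 CPM in the knockouts. The labels do not say whether same-numbered libraries are paired. Same-numbered libraries of both groups deviated together in these data. Each result is therefore also given from a fit with the number as a block where that fit changed the call. Xist, the RNA that coats the inactive X chromosome of females, had 2118 and 2440 counts in controls 2 and 3 but only 3 to 5 counts in control 1 and the knockouts, so sex is unevenly spread over the groups. Scaling by library totals in place of TMM shifted the fitted log2 values of all genes by 0.41 at the median, so changes below are relative to the TMM scale. In bulk RNA, fewer cells of a type and less RNA per cell cannot be told apart.

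Gpx8 went from barely detected to a mid-level transcript in the knockout, and few of the other genes were called. Of the 61 genes, 48 passed the filter on low counts. Among the 47 of these other than Gpx8, 1 was called at an adjusted p under 0.05 by edgeR's quasi-likelihood test, which is 2.13% of them beside 0.945% of all 13115 genes tested: the transferase Gsto1, lower in the knockout (background 0.48% lower). With the replicate block 9 of the 47 were called (19.1%, beside 5.98% of all genes). Gstm7, Gstm6, Mgst1 and Gpx3 were higher (background 3.39% higher) and Gsto1, Gclc, Gclm, Glrx and Cat were lower (background 2.58% lower). These 9 had the same direction in every alternative fit that tested them. With sex read from Xist as a covariate, 8 of them were not called (adjusted p 0.208 to 0.963), all but Gstm7. Of these 8, Gstm6 had a larger log2 fold change in that fit (2.51, beside 1.44 without the covariate). The rest were nearer 0 than without it. Glrx was at -1.09 (-1.28 without it) and Gsto1 at -0.71 (-0.96 without it). Gclc was at -0.44, Mgst1 at 0.44, Gclm at -0.32, Cat at -0.27 and Gpx3 at 0.15. For 7 of the 9, all but Gpx3 and Mgst1, the groups did not overlap on the TMM scale. Control 1, the control with few Xist counts, lies outside the knockout range for such genes by definition. On the TMM scale the groups did not overlap for 18 of the 47 (38.3%, beside 22.9% of all genes). Of these, 14 were lower in the knockout (background 11.0%) and 4 higher (background 11.9%). Scaling by library totals left 9 of the 14 below 0. A gene that passes the filter only because it is high in 1 group has to differ, so these shares describe the genes that passed and no more.

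Promoter sequences are shown for Gpx8, for Gsto1, and for Gclm and Mgst1, which moved in opposite directions with the block while both hold, before a start, the core letters of the antioxidant response element, the site that NRF2 binds. Each sequence is the 250 bases before the RefSeq transcription start (GRCm38.p6), 5′ to 3′ on the gene's strand. Capitals mark matches on either strand to the antioxidant response element core TGACNNNGC, the GC box GGGCGG, the CCAAT box, the E-box CACGTG, the cyclic AMP response element TGACGTCA or the AP-1 site TGANTCA, of which the first and the last can overlap.
Gpx8: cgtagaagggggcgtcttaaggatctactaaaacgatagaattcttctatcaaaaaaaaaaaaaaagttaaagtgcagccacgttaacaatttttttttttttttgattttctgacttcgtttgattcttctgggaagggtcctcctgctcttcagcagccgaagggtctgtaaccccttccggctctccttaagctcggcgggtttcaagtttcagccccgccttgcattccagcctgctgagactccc
Gsto1: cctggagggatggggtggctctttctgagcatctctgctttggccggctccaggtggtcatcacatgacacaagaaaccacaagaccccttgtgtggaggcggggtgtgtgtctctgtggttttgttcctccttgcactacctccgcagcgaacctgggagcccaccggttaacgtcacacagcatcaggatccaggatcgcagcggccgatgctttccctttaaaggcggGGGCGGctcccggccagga
Gclm: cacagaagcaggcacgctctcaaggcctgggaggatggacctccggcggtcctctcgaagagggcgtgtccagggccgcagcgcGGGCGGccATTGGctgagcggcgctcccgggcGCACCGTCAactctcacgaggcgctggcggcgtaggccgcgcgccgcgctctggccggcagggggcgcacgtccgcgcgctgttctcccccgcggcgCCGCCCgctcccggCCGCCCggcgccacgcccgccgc
Mgst1: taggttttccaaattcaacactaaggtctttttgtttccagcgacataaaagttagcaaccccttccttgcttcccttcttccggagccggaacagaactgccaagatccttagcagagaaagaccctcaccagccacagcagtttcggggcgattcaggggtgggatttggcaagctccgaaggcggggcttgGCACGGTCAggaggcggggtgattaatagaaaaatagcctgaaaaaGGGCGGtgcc
The Gpx8 stretch lies at chr13:113046389-113046638 on the minus strand and holds none of the 6 motifs. The Gsto1 stretch, at chr19:47854723-47854972 on the plus strand, holds a GC box next to its start. The Gclm stretch, at chr3:122245307-122245556 on the plus strand, holds the antioxidant element core, a CCAAT box and several GC boxes. The Mgst1 stretch, at chr6:138140277-138140526 on the plus strand, holds the antioxidant element core and a GC box. Mgst1 has another RefSeq start, at which the 250 bases before it (chr6:138141337-138141586) hold none of the 6 motifs. RefSeq windows of 300 bases (250 before and 50 after a start) were found for 53 of the 61 genes, 71 windows in all. The antioxidant element core was in 14.1% of these windows and in 12.4% of all 32851 mouse windows. The GC box was in 57.7% of these and 35.7% of all, and the CCAAT box in 56.3% of these and 37.4% of all. A match is only a run of letters, and no binding was measured.

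Gpx8 is a membrane-bound peroxidase of the endoplasmic reticulum, with cysteine in place of the selenocysteine of Gpx1 to Gpx4. It had 32, 9 and 16 counts in controls 1 to 3 and 257, 226 and 328 counts in knockouts 1 to 3. On the TMM-scaled level these are 1.01, 0.369 and 0.581 CPM against 6.88, 6.45 and 8.79 CPM. The lowest knockout library was more than 6 times the highest control library. The means were 0.653 ± 0.325 CPM (SD, n = 3) and 7.37 ± 1.25 CPM (SD, n = 3), and the fitted log2 fold change was 3.47 (SE 0.33), the 10th highest of the 13115 genes tested. Against the control of the same number, the knockout library held 6.83, 17.5 and 15.1 times the CPM. The log2 fold change lay between 2.87 and 3.91 in the alternative fits that tested the gene, the lowest with sex read from Xist as a covariate.

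The Gpx8 locus overlaps another gene, so the reads were also split by strand. In the GENCODE M21 annotation Gpx8 lies inside the body of Cdc20b, a gene on the opposite strand, with 0 exonic bases shared. Cdc20b had 0 counts in all 6 libraries, whichever strand was counted, which allows up to 3 counts in each. The reads fell on both strands about equally over all genes (50.1% to 50.3% forward), which is what a library without strand marking gives. Gpx8 had 19, 3 and 5 forward-strand counts in the controls and 140, 113 and 170 in the knockouts. Its reverse-strand counts were 13, 6 and 11 in the controls and 117, 113 and 158 in the knockouts. The log2 fold change was 3.59 on the forward and 3.30 on the reverse strand. Without strand marking both are parts of the same reads, so the split cannot tell reads of Gpx8 from reads of Cdc20b. Gpx8 shares 0% of its 50-base exonic windows with other transcripts.

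None of the other 3 glutathione peroxidases tested passed edgeR's test without the block. Gpx1, the abundant cytosolic selenoenzyme, stood at 45.2, 51.2 and 49.3 CPM in the controls and at 37.0, 34.4 and 34.8 CPM in the knockouts. Every control was above every knockout on the TMM scale. The gene did not pass edgeR's test (log2 fold change -0.46, SE 0.13, adjusted p = 0.131). The log2 fold change was -0.03 when scaled by library totals. DESeq2 called it lower (adjusted p = 0.00514). Gpx4, which reduces lipid peroxides in membranes, had a log2 fold change of -0.31 (adjusted p = 0.292) that turned to 0.11 under library totals, and 34.7% of its windows are shared with other transcripts, among them the pseudogene Gpx4-ps2. Gpx3, the secreted peroxidase of plasma, stood at 6.33, 2.26 and 1.74 CPM in the controls and at 11.3, 3.05 and 6.59 CPM in the knockouts, with overlapping groups. Each knockout was above the control of its own number. Its log2 fold change was 1.01 (SE 0.68, adjusted p = 0.538), and with the replicate block it rose, by 1.06 (SE 0.26, adjusted p = 0.0417). With sex as a covariate it was 0.15 (adjusted p = 0.963). Gpx7, the soluble counterpart of Gpx8 in the endoplasmic reticulum, was near the detection limit at 0.220, 0.164 and 0.254 CPM in the controls and 0.428, 0.228 and 0.0536 CPM in the knockouts. Gpx2, best known from the gut epithelium, was equally low at 0.0726 to 0.616 CPM, and neither was tested. Gpx5 and Gpx6 had no counts.

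**Figure D1:**
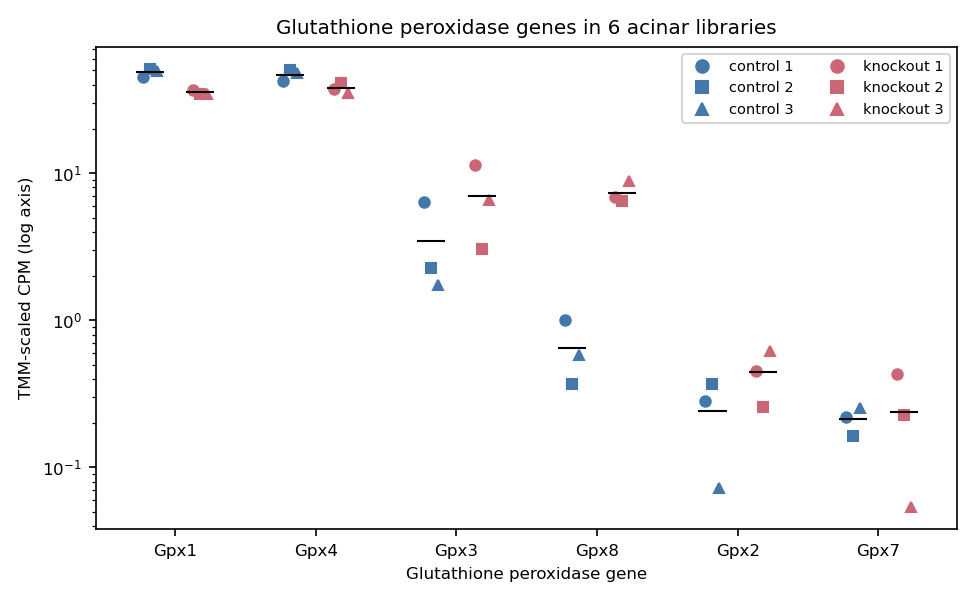
TMM-scaled CPM (log axis) of 6 glutathione peroxidase genes in each of the 6 libraries, with symbols for the preparation number, colours for the group and bars at the group means (n = 3). Gpx8 is the gene whose groups stand far apart, 0.369 to 1.01 CPM against 6.45 to 8.79 CPM, while Gpx3, Gpx2 and Gpx7 overlap between groups.

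Per exonic length, the mean of Gpx8 lay below that of Gpx3 in the controls and above it in the knockouts. Gpx8 had 0.623 ± 0.310 RPKM (CPM per kilobase of exon, from the TMM-scaled CPM; SD, n = 3) in the controls and 7.03 ± 1.19 RPKM in the knockouts. Gpx3 had 1.90 ± 1.38 RPKM (SD, n = 3) in the controls and 3.86 ± 2.29 RPKM in the knockouts. Gpx1 had 33.7 RPKM in the controls and 24.6 RPKM in the knockouts. Gpx8 supplied 0.684% of all counts of the Gpx family in the controls and 8.37% in the knockouts. Across all the genes, the highest per length were Gstp1, Prdx4, Gstm1, Txn1, Gstm2, Gpx1 and Gpx4, and 10 genes had a mean above 10 RPKM. Gstp1 (81.0 ± 15.0 RPKM in the controls, 65.5 ± 4.19 in the knockouts) and Prdx4 (71.2 ± 12.7 and 46.8 ± 6.84; SD, n = 3) differed from each other by less than their spread in the controls. Gstm1 (37.2 RPKM), Gstm2 (36.5), Txn1 (34.4) and Gpx1 (33.7) lay close together in the controls. Reads that fit several places are assigned to no gene, so genes with near copies are undercounted: 33.7% of the Gstp1 windows and 18.9% of the Gstm1 windows occur in other transcripts.

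**Figure D2:**
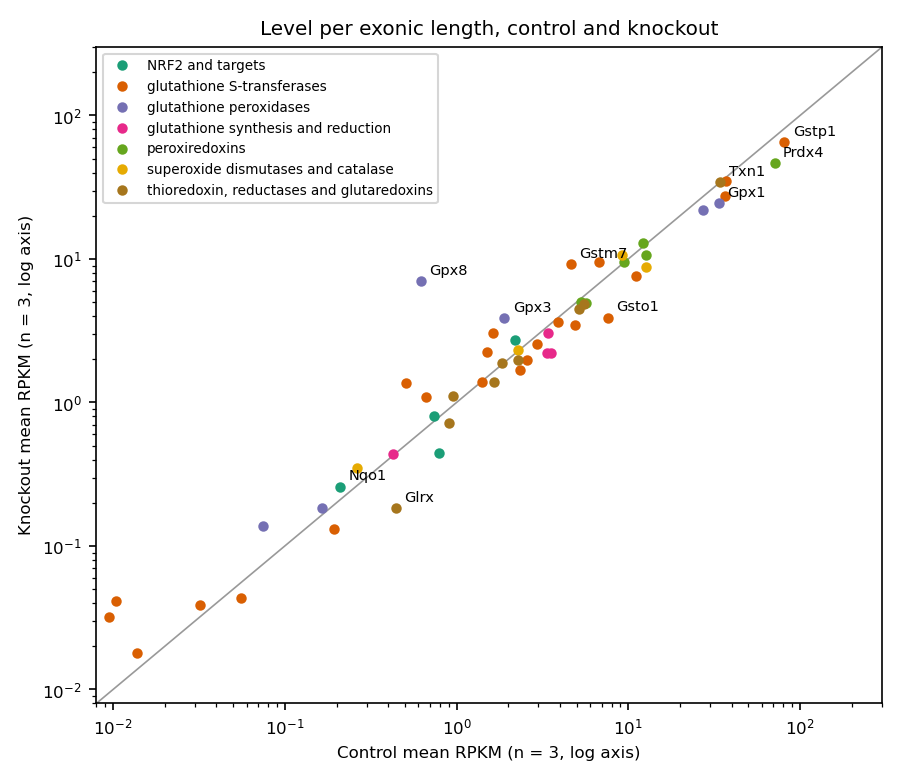
Mean level in the knockouts against the mean level in the controls for each gene with a value above 0 in both groups, in RPKM on log axes (n = 3 per group), coloured by family. Gpx8 lies farthest above the line of equal levels among the expressed genes, at 0.623 RPKM in the controls and 7.03 RPKM in the knockouts.

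On the TMM scale, both genes of the enzyme that commits cysteine to glutathione were lower in every knockout library than in any control. Gclc encodes the catalytic subunit of glutamate-cysteine ligase, and stood at 11.2, 11.7 and 15.3 CPM in the controls and 7.34, 8.73 and 8.74 CPM in the knockouts. Gclm encodes its modifier subunit, and stood at 17.4, 24.3 and 25.5 CPM in the controls and 12.3, 13.6 and 16.0 CPM in the knockouts. On that scale, no control value of either subunit lay within the knockout range. Neither passed the edgeR test without the block, Gclc with a log2 fold change of -0.62 (SE 0.16, adjusted p = 0.115) and Gclm with -0.68 (SE 0.18, adjusted p = 0.118). With the replicate block both fell, Gclc with an adjusted p of 0.0288 and Gclm with an adjusted p of 0.0152. Under library totals the log2 fold changes were -0.20 for Gclc and -0.25 for Gclm. Gss, which adds the glycine, was at 1.76, 2.46 and 3.38 CPM in the controls and 2.60, 2.82 and 2.36 CPM in the knockouts. Gsr, the reductase that recycles glutathione, was at 8.59, 11.0 and 8.50 CPM in the controls and 8.25, 7.62 and 9.22 CPM in the knockouts. Both overlapped between groups and neither passed a test, Gsr with a log2 fold change of -0.16 (adjusted p = 0.669; 0.26 under library totals).

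Among the 25 glutathione S-transferase genes, of which 17 were tested, members moved in both directions. Gsto1 encodes an omega-class enzyme that reduces dehydroascorbate and mixed disulfides. It stood at 12.9, 16.1 and 16.9 CPM in the controls and 6.72, 8.87 and 8.09 CPM in the knockouts. Every control was above every knockout (exact permutation p = 0.1, two-sided). The means were 15.3 ± 2.10 and 7.89 ± 1.09 CPM (SD, n = 3). Each knockout held 0.478 to 0.551 of the level of the control of the same number. Gsto1 fell by 0.96 on the log2 scale (SE 0.16, adjusted p = 0.0338; 0.00251 with the block). The call was kept only without control 1 (adjusted p = 0.0127) when 1 library was left out, and was lost without any other library (adjusted p 0.0710 to 0.171), with limma-voom (0.0505), with reverse-strand counts (0.0510) and with sex as a covariate (0.265).

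Of the transferases called higher in the knockout with the block, a pair belongs to the mu class and 1 to the microsomal group. Gstm7, a cytosolic mu-class enzyme, was at 5.00, 9.28 and 7.88 CPM in the controls and 14.4, 13.4 and 16.4 CPM in the knockouts, with no overlap. Its log2 fold change was 1.00 (SE 0.22, adjusted p = 0.0719), and it rose with the replicate block (1.03, adjusted p = 0.00948), with library totals (adjusted p = 0.0166) and with sex as a covariate (1.56, adjusted p = 0.0461). Gstm6, a low-level relative, was at 0.472, 1.35 and 1.20 CPM in the controls and 2.30, 3.68 and 2.17 CPM in the knockouts, again without overlap. It rose by 1.48 in log2 with the block (adjusted p = 0.0234) and missed the threshold without it (1.44, SE 0.43, adjusted p = 0.154). In both mu genes control 1 was the lowest library. Mgst1, a transferase and peroxidase of the endoplasmic reticulum and outer mitochondrial membranes, was at 4.50, 2.30 and 3.05 CPM in the controls and 7.44, 3.94 and 6.91 CPM in the knockouts. Its groups overlapped, yet each knockout held 1.65 to 2.27 times the level of the control of the same number. Mgst1 rose with the block (0.89, adjusted p = 0.0194) and did not pass without it (0.89, SE 0.31, adjusted p = 0.216). Gstp1, the pi-class enzyme and the most abundant of all these genes per length, was at 99.2, 143 and 134 CPM in the controls and 103, 94.3 and 107 CPM in the knockouts. It did not pass a test (log2 fold change -0.31, adjusted p = 0.423), and its sign turned under library totals (0.13). Gsta3, an alpha-class enzyme, was at 4.82, 6.90 and 7.88 CPM in the controls and 10.8, 8.93 and 9.54 CPM in the knockouts. Gstk1, the kappa-class enzyme, was at 7.90, 12.5 and 9.52 CPM in the controls and 15.1, 12.7 and 14.1 CPM in the knockouts. For both, every knockout was above every control, but neither passed with or without the block (log2 fold change 0.58 and 0.49, adjusted p = 0.189 and 0.223 without it). Both passed when scaled by library totals (adjusted p = 0.0224 and 0.0231). Gstt1 and Gstt3 were lower in every knockout than in any control on the TMM scale. Neither passed with or without the block (log2 fold change -0.53 and -0.47, adjusted p = 0.207 and 0.218 without it). Under library totals their values were -0.09 and -0.03. Other mu-class genes had values below 0, such as Gstm5 with a log2 fold change of -0.50 and Gstm2 with -0.41. These did not pass, and Gstm2 turned to 0.04 under library totals. Of the 17 transferase genes tested, 11 had a fitted log2 fold change below 0 and 6 above 0.

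**Figure D3:**
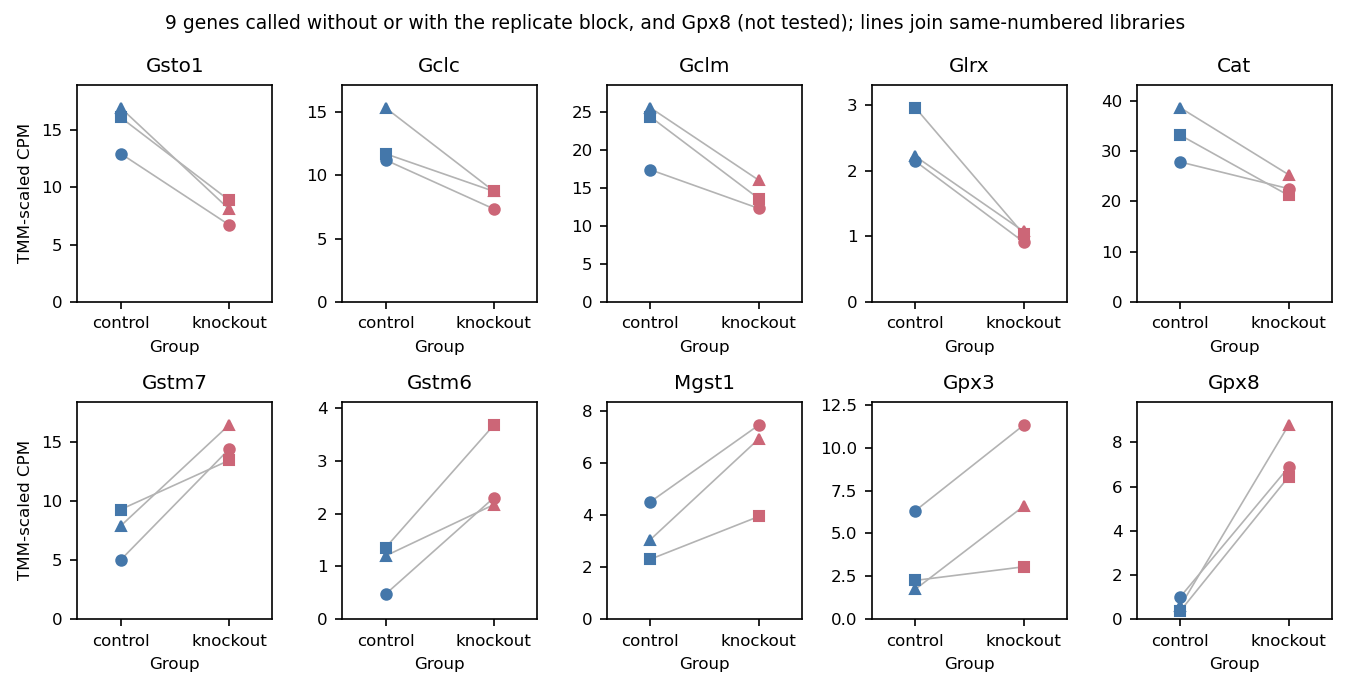
TMM-scaled CPM of Gpx8 and of the 9 other genes called without or with the replicate block, 1 panel per gene with its own axis from 0; circles, squares and triangles are preparations 1, 2 and 3, and lines join libraries of the same number. All 3 lines slope the same way in each panel, while the groups overlap for Mgst1 and Gpx3. The block fit compares same-numbered libraries, so the genes it calls are expected to show such lines, and the labels give no pairing.

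Of the peroxiredoxin, thioredoxin, thioredoxin reductase and glutaredoxin genes, Glrx was called by edgeR with the block. Cat was called with it among the superoxide dismutases and catalase. Prdx4, the peroxiredoxin of the endoplasmic reticulum, was at 139, 181 and 131 CPM in the controls and 82.3, 104 and 110 CPM in the knockouts. All knockouts were below all controls on the TMM scale. The gene passed neither edgeR test (log2 fold change -0.61, SE 0.18, adjusted p = 0.157, and 0.0521 with the block). DESeq2 called it lower (adjusted p = 0.0159). Prdx4 lies on the X chromosome, and with sex as a covariate in edgeR its log2 fold change was -0.49 (adjusted p = 0.516). None of the 6 peroxiredoxin genes tested was called by edgeR on the TMM scale with or without the block, and 1 of the 7, Prdx6b, had no counts. Txn1, the cytosolic thioredoxin, was at 33.9, 42.6 and 32.0 CPM in the controls and 34.8, 37.4 and 35.5 CPM in the knockouts, which overlap. Glrx, the cytosolic glutaredoxin that removes glutathione from proteins, was at 2.14, 2.96 and 2.22 CPM in the controls and 0.910, 1.03 and 1.07 CPM in the knockouts. The knockouts lay close together, all below the controls. Glrx fell by 1.27 in log2 with the block (adjusted p = 0.0296), and its value without it was -1.28 (SE 0.30, adjusted p = 0.0853). Catalase (Cat) is the peroxisomal enzyme that splits hydrogen peroxide. It was at 27.8, 33.2 and 38.6 CPM in the controls and 22.5, 21.2 and 25.3 CPM in the knockouts. On the TMM scale these groups did not overlap. Cat fell by 0.52 in log2 with the block (adjusted p = 0.0459) and did not pass without it (-0.53, adjusted p = 0.146). The difference was -0.10 under library totals. The 3 superoxide dismutase genes had log2 fold changes of 0.22 (Sod1), 0.02 (Sod2) and 0.41 (Sod3), none of which passed on the TMM scale with or without the block. Under library totals Sod1 (0.66, adjusted p = 0.0324) and Sod2 (0.46, adjusted p = 0.0493) passed, as did Prdx5 (adjusted p = 0.0485) and the mitochondrial thioredoxin reductase Txnrd2 (adjusted p = 0.0443).

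The NRF2 gene and the targets Nqo1, Hmox1 and Srxn1 were not called in either edgeR fit. Nfe2l2 stood at 8.25, 9.15 and 7.55 CPM in the controls and 9.13, 9.21 and 12.7 CPM in the knockouts (log2 fold change 0.32, adjusted p = 0.396). Hmox1, the haem-degrading enzyme, stood at 1.45, 0.903 and 1.78 CPM in the controls and 0.937, 0.599 and 0.804 CPM in the knockouts (log2 fold change -0.82, SE 0.41, adjusted p = 0.363). Both sets of values overlap between groups. Nqo1, the quinone reductase often used as a readout of NRF2, was at 0.378, 0.205 and 0.400 CPM in the controls and 0.883, 0.0285 and 0.295 CPM in the knockouts, which overlap. The antioxidant element core was in 10 of the 71 RefSeq windows found for the genes described here (14.1%, beside 12.4% of all mouse windows). The genes with it are Gclm, Gsta3, Gstm5, Gstm7, Mgst1, Nfe2l2, Prdx1, Sod1, Srxn1 and Txnrd1. With the block, 1 of these genes fell (Gclm; 2.58% of all genes fell) and 2 rose (Gstm7 and Mgst1; 3.39% of all genes rose).

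Over the 47 tested genes other than Gpx8, 29 had a fitted log2 fold change below 0 and 18 above 0. With library totals the split was 11 below and 36 above, so 18 of the 47 changed sign with the scale. The median was -0.16 beside 0.02 for all tested genes, and 0.26 beside 0.43 under library totals. For 36 of the 47 the difference was under 1.5-fold, and the 38 genes called by edgeR neither with nor without the block had absolute log2 fold changes of at most 0.82.

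**Figure D4:**
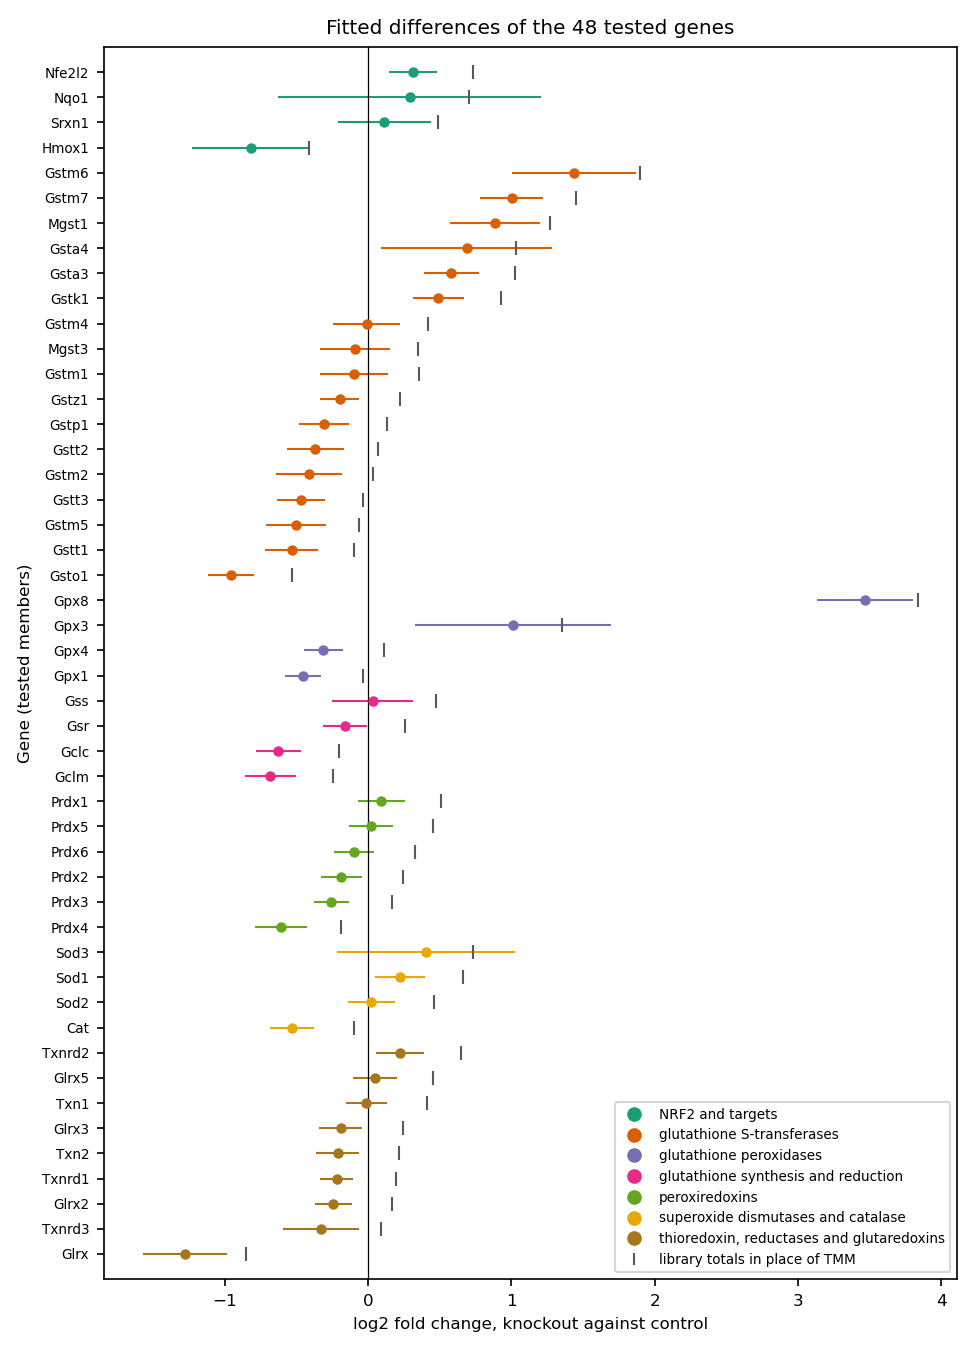
Fitted log2 fold change, knockout against control, of each of the 48 tested genes (points, bars of 1 SE, coloured by family), with the value under library totals as a short vertical mark. Gpx8 stands at 3.47, the other genes lie between -1.28 and 1.44, and the marks under library totals are shifted to the right of the points.

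Other genes of these pathways were read from lists of NRF2 targets and regulators, folding partners of the endoplasmic reticulum, glutathione supply, thioredoxin partners, selenoprotein synthesis and oxidant sources. None of the tested genes of these 7 lists was called by edgeR without the block. At an unadjusted p under 0.05 stood 5 of 19 NRF2 targets, 3 of 11 NRF2 regulators, 2 of 14 folding partners, 5 of 20 supply genes, 4 of 16 thioredoxin partners, 2 of 10 selenoprotein synthesis genes and 2 of 9 oxidant sources, beside 16.7% of all genes. With the block, 8 of the 99 genes tested in these lists were called (8.08%, beside 5.98% of all genes), a share near the background. Osgin1, an NRF2 target, was at 6.01, 5.25 and 3.38 CPM in the controls and 13.8, 6.73 and 9.89 CPM in the knockouts, and rose (adjusted p = 0.0196; 0.157 without the block). Idh1, the cytosolic NADPH-producing isocitrate dehydrogenase, was at 14.4, 17.6 and 12.5 CPM against 9.29, 10.6 and 9.38 CPM, and fell (adjusted p = 0.0299; 0.116 without). Cul3, the cullin that with Keap1 marks NRF2 for degradation, was at 31.9, 33.9 and 38.8 CPM against 23.6, 23.5 and 26.0 CPM, and fell (adjusted p = 0.0406; 0.110 without). For these 3 genes the groups did not overlap.

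In the thioredoxin list, both a methionine sulfoxide reductase pair and Txnip were called with the block. Msrb1, a selenoprotein that reduces oxidized methionine, was at 79.7, 114 and 92.1 CPM in the controls and 51.4, 53.8 and 56.9 CPM in the knockouts, and fell with the block (adjusted p = 0.0116; without it log2 fold change -0.82, adjusted p = 0.0596). Msra, which acts on the other stereoisomer, had a log2 fold change of -0.64 and fell with the block (adjusted p = 0.0333). Txnip, the inhibitor that binds thioredoxin, was at 130, 95.6 and 247 CPM in the controls and 277, 148 and 461 CPM in the knockouts. Those groups overlap, and each knockout was above the control of the same number. Txnip rose with the block (adjusted p = 0.0116, and 0.454 without it). Chac2, which breaks down glutathione, and Hagh, a hydrolase of the glyoxalase pathway, fell with the block (adjusted p = 0.0223 and 0.0341; without it 0.145 and 0.128). No folding partner, selenoprotein synthesis gene or oxidant source was called with the block, where edgeR was also used.

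Markers of other cell types varied between the libraries, and some of these genes varied with them. The 12 fibroblast and stellate markers summed to 150, 33.4 and 49.3 CPM in the controls and 155, 37.9 and 127 CPM in the knockouts. The 12 macrophage and other leukocyte markers summed to 156, 36.9 and 26.3 CPM in the controls and 112, 24.6 and 85.9 CPM in the knockouts. Gpx3 and Mgst1 were high in the same libraries, control 1 and knockouts 1 and 3, and the part of these cells in the difference of both genes was not tested. Gpx8 had 1.01, 0.369 and 0.581 CPM in controls 1 to 3 and 6.88, 6.45 and 8.79 CPM in knockouts 1 to 3. In each group its lowest value was in library 2, which also had the lowest fibroblast sum of that group. The part of these cells in the Gpx8 difference was not tested. Of the 10 leukocyte markers tested, 4 were called higher in the knockouts with the block (Adgre1, C1qa, C1qb and C1qc), beside 3.39% of all genes. In edgeR without the block, 1 of the 10 stood at an unadjusted p under 0.05 and none was called. No fibroblast marker was called with or without the block (0 of 12 at an unadjusted p under 0.05).

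Summed endothelial markers ran from 22.1 to 89.4 CPM in the controls and from 33.4 to 114 CPM in the knockouts. Islet markers summed to 356 to 464 CPM and 245 to 910 CPM, and duct markers to 202 to 243 CPM and 189 to 283 CPM. Although the duct sums overlapped, 6 of the 8 duct markers stood at an unadjusted p under 0.05 in edgeR, none was called without the block, and with it 5 were called (Krt19, Krt7, Spp1, Muc1 and Epcam, 3 higher and 2 lower). With the block the acinar factor Ptf1a was called lower, and the islet gene Pcsk2 and the adipocyte gene Fabp4 were called higher. On the TMM scale, acinar markers summed lower in every knockout than in any control. The median log2 fold change of the 8 acinar markers was -0.47, and -0.03 under library totals. The part of these markers in the lower values of Gsto1, Gclc, Gclm, Glrx and Cat was not tested. The adipocyte, red blood cell and Schwann cell sums were at most 17.2 CPM in any library, and the adipocyte genes Adipoq and Lep had no counts in any library.

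**Figure D5:**
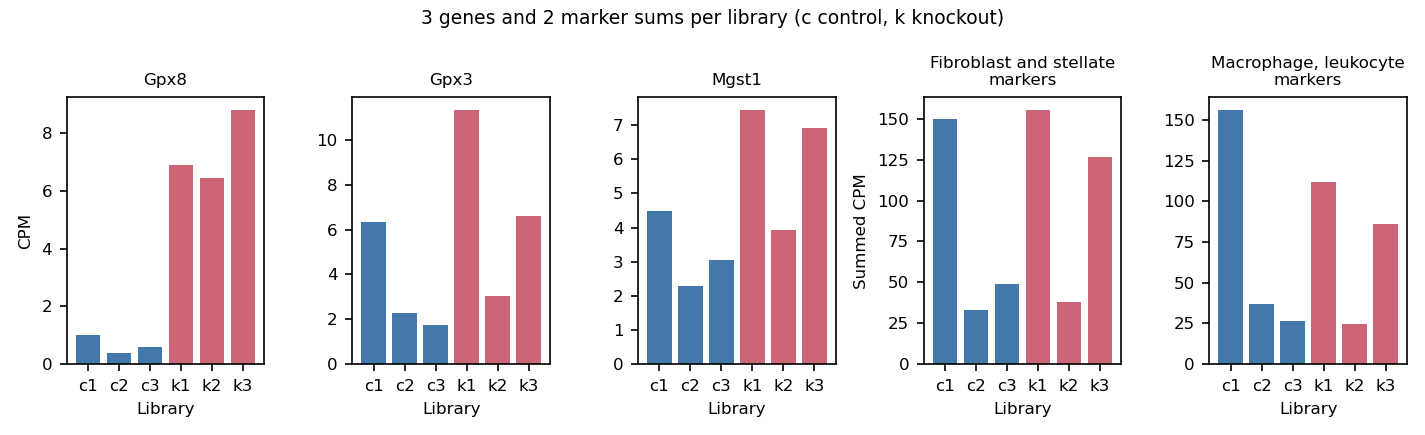
TMM-scaled CPM of Gpx8, Gpx3 and Mgst1 and the summed CPM of fibroblast and stellate markers and of leukocyte markers in each library (c control, k knockout), each panel with its own axis from 0. The marker sums, Gpx3 and Mgst1 are highest in c1, k1 and k3, while Gpx8 is low in all 3 controls and high in all 3 knockouts.

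The 13 genes that did not pass the filter had at most 23 counts in any library. Gsta1, Gpx5, Gpx6 and Prdx6b had 0 counts in all 6 libraries, which allows up to 3 counts, or 0.0803 to 0.123 CPM. Gsta2, Gstm3, Gsto2, Gstp2, Gstp3, Gstt4 and Mgst2 are transferases with at most 12 counts in a library. Gsta1, Gsta2 and Gstp2 share 49.8% to 90.5% of their windows with other transcripts and can be undercounted for that reason.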

How the data were processed

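The authors deposited STAR gene counts for each library, as unstranded counts and counts on either strand. The submitters' processing notes name STAR 2.7.10a and the builds GRCm39 and mm39. The annotation used in the authors' counting is not given in the sources used here. Identifiers were matched to GENCODE M21 (GRCm38) symbols, and 52081 of 55414 matched (94.0%). Since the builds differ, no gene coordinates are printed except those of RefSeq promoters on GRCm38.p6. Reads mapped to several places were 26.0% to 28.4% in the controls and 21.6% to 24.1% in the knockouts, and stay out of the gene counts and library sizes. Two-sided edgeR 4.0.16 quasi-likelihood tests (R 4.3.3, filterByExpr, TMM, robust fit) were run on the unstranded counts of all genes, with Benjamini-Hochberg adjustment over all 13115 tested genes and a call at an adjusted p under 0.05. Every adjusted p in the text is of this kind unless another tool is named. The steps were tested on simulated data, where the share of false calls was above the nominal share in both fits and higher with the replicate block.

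The labels number 3 biological replicates per group but do not say whether each is 1 animal, so p-values measure only the spread between these samples. Every pair of the 6 libraries differed by more than sampling noise (chi-square per degree of freedom at least 26.3). Deviations from the group means (log2 CPM, prior count 2) correlated at 0.63, 0.455 and 0.285 for the libraries numbered 1, 2 and 3. For others the correlations were -0.496 to 0.21, the highest for control 3 with knockout 2. The labels give no pairing, so the number was taken to pair the libraries from these same data. A fit with the number as a block was also made. RPKM divides the TMM-scaled CPM by the summed exonic length. A zero count allows 3 counts, for counting error only. Alternatives were other scalings, filters, tools (DESeq2 1.42.0, limma-voom 3.58.1), strands, a sex covariate split at 100 Xist counts, and leaving out each library. Values per library are given for Gpx8, the genes called in either fit, and the most abundant and most changed gene of each family (mean of at least 1 CPM). The genes and lists were chosen with earlier results of these data known.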

Additional observations from a re-analysis of the deposited data

How the results depend on the processing

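Without Gpx8, 1 of the 47 tested genes was called. The number was 9 with library totals (8 higher, 1 lower), 9 with no filter on low counts, 2 when every library had to hold 10 counts, 8 with DESeq2 (Gstm7 higher; Gsto1, Gpx1, Gclc, Gclm, Prdx4, Cat and Glrx lower), 9 with the replicate block, 2 with forward-strand counts, and 0 with limma-voom (15 at an unadjusted p under 0.05) and with edgeR on reverse-strand counts (18 at an unadjusted p under 0.05). It was 1 with sex as a covariate, which called Gstm7 and not Gsto1. Leaving out 1 library gave 0 to 6, with 6 without control 1, and 0 without each of the others (10 to 13 at an unadjusted p under 0.05 in edgeR). Over all genes, 124 were called (61 higher, 63 lower). The count was 1528 with library totals (11.7% of the genes tested, 1451 higher, 77 lower), 850 with no filter (3.3%) and 210 with the 10-count minimum (1.89%). DESeq2 called 594 (4.53%) and left 22 genes without an adjusted p. The replicate block gave 784 (5.98%, 445 higher, 339 lower). Forward-strand counts gave 169 (1.31%), reverse-strand counts 149 (1.15%), limma-voom 84 (0.64%) and sex as a covariate 21 (0.16%). With 1 library left out it was 20 (0.143%, without control 2) to 461 (3.41%, without control 1). The sign turned for Gsr with library totals (0.26), for Gstp1 with library totals (0.13) and the sex covariate (0.032), and for Txn1 with library totals (0.41), the 10-count minimum (0.0076), forward-strand counts (0.038), the sex covariate (0.084), without control 2 (0.12) and without knockout 1 (0.012), while without the other libraries it stayed below 0 (lowest -0.091, without control 3), all log2 fold changes; the causes were not tested. With that minimum Gpx8 was not tested, since control 2 had 9. For these genes and the gene and marker lists, the block changed no call other than those given. With 3 libraries per group, sex unevenly spread and few counts for Glrx, Gstm6 and Nqo1, differences smaller than those called may have been missed.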
